A study of Bos taurus with 8 samples.

Results

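A list of 7 miRNAs that are widely expressed in mammalian tissues, bta-miR-191, bta-miR-425-5p, bta-miR-423-5p, bta-miR-423-3p, bta-miR-361, bta-miR-186 and bta-miR-140, were examined as possible reference miRNAs for bovine plasma exosomes. They were chosen by name as 7 of the 744 bovine miRNAs on the array and not by a cut on their signals, though earlier results of these data were known. Of these 7, 5 were detected on all 8 arrays and 2, miR-191 and miR-423-3p, on 0. Each array held 1 pool of plasma exosomal RNA from 3 Japanese Shorthorn steers, 1 pool for each feeding label (grazing on pasture, or housed in a free-stall barn) at 0, 1, 2 and 4 months (mo). The labels gave no age, and all steers were fed on grass without grain. The same 3 steers of a label were pooled at every month, and no label and month had a second array, so the pools describe 6 steers and no value has a replicate error.

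The deposited labels and the study's own listing of the array values name the feeding groups in opposite ways. The normalized values of 141 miRNAs on each array were set against every column of that listing, and on all 8 arrays the column that was equal within 0.1% for all 141 carried the name of the other group. At most 2 miRNAs were equal in any other column. Arrays are therefore called labelled housed or labelled grazing, and each direction between the labels is reversed when the groups are read by the listing. On the slide, the arrays labelled housed lay in one column and those labelled grazing in the other, with the months in rows, so position and label or month cannot be told apart.

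A miRNA is a short RNA cut from a hairpin, and either arm of the hairpin can be kept as the mature strand, which then guides the silencing of mRNAs that pair with it. Many hairpins lie inside introns of protein-coding genes and are transcribed with them. In plasma, part of the miRNA is carried in exosomes, small vesicles released by many cell types. Since the amount of RNA recovered varies from sample to sample and no housekeeping RNA is agreed for plasma, levels are usually set against a miRNA that differs little between samples. miR-191, miR-425 and miR-423 are among those proposed for this use, and the study itself used let-7g, a member of the let-7 family. miR-140 is best known from cartilage, and miR-186 and miR-361 are found in many tissues.

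The longest probe of each is shown because the probes show what the array could bind and how the detected and undetected members differ in design. Each is written 5′ to 3′ as DNA, complementary to the miRNA, with capitals for the bases that the shortest probe of the same miRNA lacks.
miR-140: tccgtggttctaccC
miR-186: agcccaaaaggagaattcttT
miR-361: gtacccctggagattC
miR-425-5p: tcaacgggagtgatcgtG
miR-423-5p: aaagtctcgctctctgC
miR-423-3p: actgaggggccTCA
miR-191: cagctgcttttgGGA
Each of the 5 detected members had 2 probes that differed by 1 base in length, whereas miR-191 and miR-423-3p each had 4 probes, of 12 to 15 and 11 to 14 bases. Of all miRNAs with 4 probes, 4 of 38 (10.5%) were detected on at least 1 array, against 219 of 653 (33.5%) with 2 probes. Short probes as such did not go with fewer detections. With a longest probe of up to 15 bases 87 of 230 (37.8%) were detected, against 144 of 514 (28.0%) with a longer one. The longest probe of miR-140, a detected member, also had 15 bases. Whether the probe design left the 2 members undetected was not tested. The GC share of the longest probe was lowest for miR-186, at 38.1%, and highest for miR-423-3p, at 64.3%.

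The array design places these probes on the bovine build UMD_3.1, without a strand. The positions are chr18:37088200-37088213 for miR-140, chr3:74462311-74462330 for miR-186 and chrX:74328434-74328448 for miR-361. The probe of miR-425-5p is placed at chr22:51543971-51543987 and that of miR-191 at chr22:51543493-51543506, with 464 bases between them. The probe of miR-423-5p is placed at chr19:21799507-21799522. For miR-423-3p, the other arm of the same hairpin, 2 places are given, chr19:21799545-21799558 and chr19:21234544-21234557. For 6 of the 7 miRNAs the placement is 1 base shorter than the probe, as the design gives it.

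In the RefSeq gene list of the later assembly ARS-UCD2.0, the hairpin of miR-140 lies within WWP2, that of miR-186 within ZRANB2, that of miR-361 within CHM and that of both miR-423 arms within NSRP1. WWP2 encodes a ubiquitin ligase, ZRANB2 a splicing factor and CHM a Rab escort protein. The hairpins of miR-191 and miR-425 lie within no protein-coding gene of that list but between NDUFAF3 and DALRD3, so a position inside a gene was seen for 5 of the 7 members and not for these 2. Whether a hairpin lies in an exon or an intron was not analysed here, as only the bounds of the genes were used.

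The 2 undetected members gave no usable level. The total signal, the scanner software's background-subtracted brightness summed over the probes of a miRNA, was below 0 on all 8 arrays for miR-191. Its values for 0, 1, 2 and 4 mo were -0.999, -2.09, -2.17 and -2.78 labelled housed and -1.94, -2.40, -1.95 and -2.96 labelled grazing. The total signal of miR-423-3p was 2.81, 2.40, -0.263 and 1.70 labelled housed and -0.0228, 0.0537, 2.41 and -0.629 labelled grazing. The highest of these was 2.12 times its own error estimate, and 0 of the 40 spots of either miRNA stood well above background on any array. On these arrays neither miRNA could serve as a reference, and whether they were present below the detection limit cannot be told. miR-425-3p, the other arm of the miR-425 hairpin and not a member, was detected on 2 of the 8 arrays, with a signal of at most 9.29.

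The 5 other members were detected everywhere. In pooled plasma exosomes, fewer vesicles that carry a miRNA and less of it per vesicle cannot be told apart. For miR-140 the total signal at 0, 1, 2 and 4 mo was 471, 340, 231 and 323 labelled housed and 179, 165, 249 and 171 labelled grazing. miR-186 gave 123, 89.3, 47.7 and 91.7 labelled housed and 35.1, 35.7, 52.9 and 31.5 labelled grazing. For miR-361 the values were 120, 74.7, 47.6 and 72.8 labelled housed and 33.5, 31.3, 82.5 and 33.3 labelled grazing. All 3 miRNAs were thus highest on the array labelled housed 0 mo, and higher labelled housed than labelled grazing except at 2 mo.

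miR-425-5p gave 101, 85.5, 50.8 and 79.3 on the arrays labelled housed and 31.1, 41.7, 70.3 and 25.8 on those labelled grazing. For miR-423-5p the signal was 92.0, 60.7, 55.1 and 56.7 labelled housed and 40.1, 36.2, 107 and 41.8 labelled grazing. miR-423-5p was the only detected member whose highest signal was on the array labelled grazing 2 mo. The highest signal of a detected member was between 2.85 times the lowest, for miR-140, and 3.91 times, for miR-425-5p. The error estimates of these signals were 7.25% to 10.6% of the signal, and they cover the spots of 1 array and not differences between animals.

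**Figure D1:**
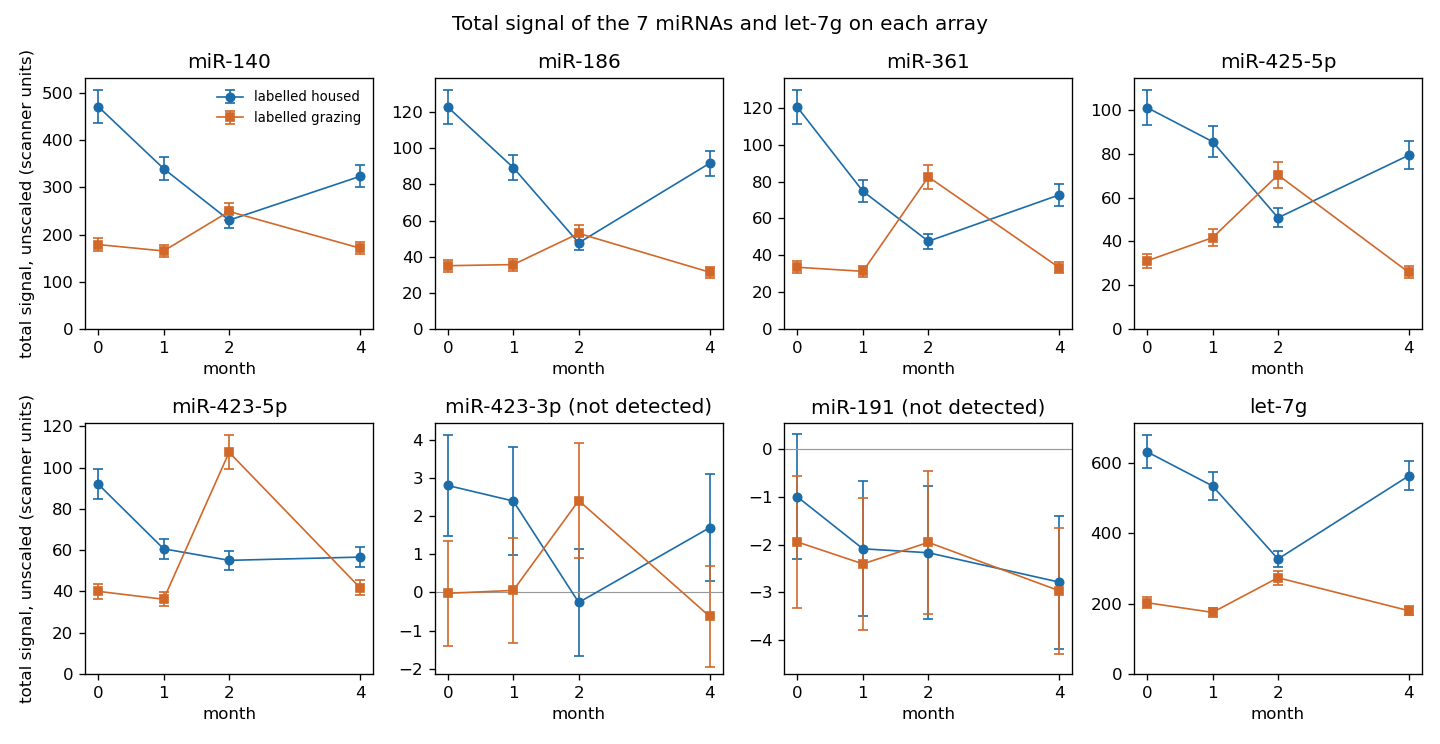
Total signal in scanner units, not scaled between arrays, against month for the 7 miRNAs and let-7g, with the scanner software's error estimate as bars and 1 array per point. The 5 detected members were higher labelled housed than labelled grazing except at 2 mo, let-7g was higher labelled housed at every month, and miR-423-3p and miR-191 stayed near or below 0.

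The same course was seen in the array as a whole. The 90th percentile over all 744 miRNAs was highest, 109, for the pool labelled housed 0 mo and lowest, 31.2, for that labelled grazing 1 mo, a 3.49-fold range. The number of miRNAs detected was 226 on the former array and 149 on the latter. The geometric mean of the 5 members had a range of 3.20-fold. The summed signal of the hybridization spike-in, an oligonucleotide added in equal amount to each array, had a range of only 1.16-fold. To compare arrays, each signal was divided by the array's own 90th percentile and taken to log2, which is called the scaled signal.

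After this scaling miR-140 and miR-186 varied least. The scaled signal of miR-140 was 2.11, 2.03, 2.19 and 1.97 labelled housed and 2.14, 2.40, 2.15 and 2.32 labelled grazing, with an SD of 0.14 over the 8 arrays. That of miR-186 was 0.17, 0.10, -0.09 and 0.15 labelled housed and -0.21, 0.19, -0.09 and -0.12 labelled grazing, with an SD of 0.16. Among the 143 miRNAs detected on all 8 arrays, whose median SD was 0.33, these were the 3rd and the 6th smallest. Both SDs were near the error estimate of a single scaled value, which was 0.11 for miR-140 and 0.12 for miR-186, so they exceeded it 1.36 and 1.29 times.

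miR-361 and miR-425-5p lay in the middle. The scaled signal of miR-361 was 0.14, -0.16, -0.09 and -0.18 labelled housed and -0.28, 0.00, 0.56 and -0.04 labelled grazing, with an SD of 0.26 and the 43rd rank of 143. Its spread came mainly from the array labelled grazing 2 mo, and without that array the SD was 0.14 and the rank 5. For miR-425-5p the scaled signal was -0.11, 0.04, 0.00 and -0.06 labelled housed and -0.39, 0.42, 0.32 and -0.41 labelled grazing. Its SD was 0.29, the 56th of 143, but 0.06 over the 4 arrays labelled housed and 0.44 over the 4 labelled grazing. The error estimate of this miRNA was 0.13, so its spread labelled housed was smaller than the error estimate.

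miR-423-5p varied most, with an SD of 0.47 that ranked 114th of 143 and was 3.92 times its error estimate. Its scaled signal was -0.24, -0.46, 0.12 and -0.54 labelled housed and -0.02, 0.21, 0.94 and 0.29 labelled grazing. In both labels the value was highest at 2 mo. Without the array labelled grazing 2 mo the SD was 0.33 and the rank 78, still the largest of the 5.

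**Figure D2:**
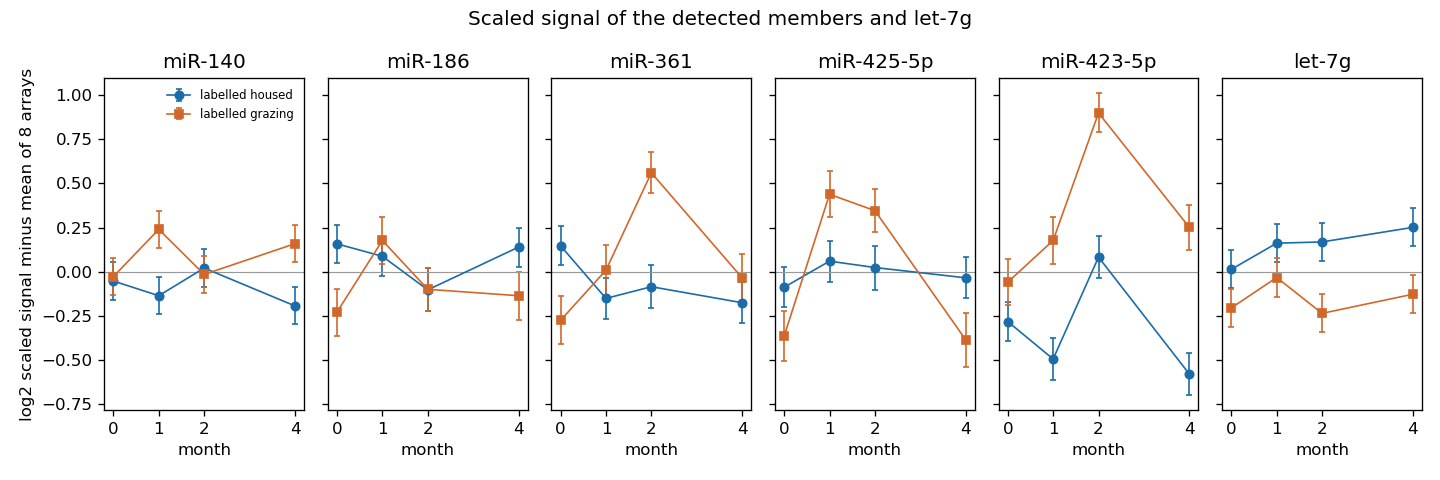
Scaled signal (log2, minus the mean of the 8 arrays) against month for the 5 detected members and let-7g, with the scanner software's error estimate as bars and 1 array per point. miR-140 stays within 0.24 and miR-186 within 0.23 of its mean, and miR-423-5p and miR-361 are highest on the array labelled grazing 2 mo.

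let-7g, the study's normalizer, had an SD of 0.18 and the 13th rank, between miR-186 and miR-361. A list of 9 other miRNAs often used as references in plasma was set beside the members. Of these, 8 were detected on all 8 arrays, with SDs from 0.17 for miR-26a to 0.40 for miR-16a and a median of 0.26, against a median of 0.26 for the 5 detected members. miR-484 was detected on 5 arrays. By this measure miR-140 and miR-186 were below, and miR-423-5p above, all 8 of the listed miRNAs that were detected everywhere.

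**Figure D3:**
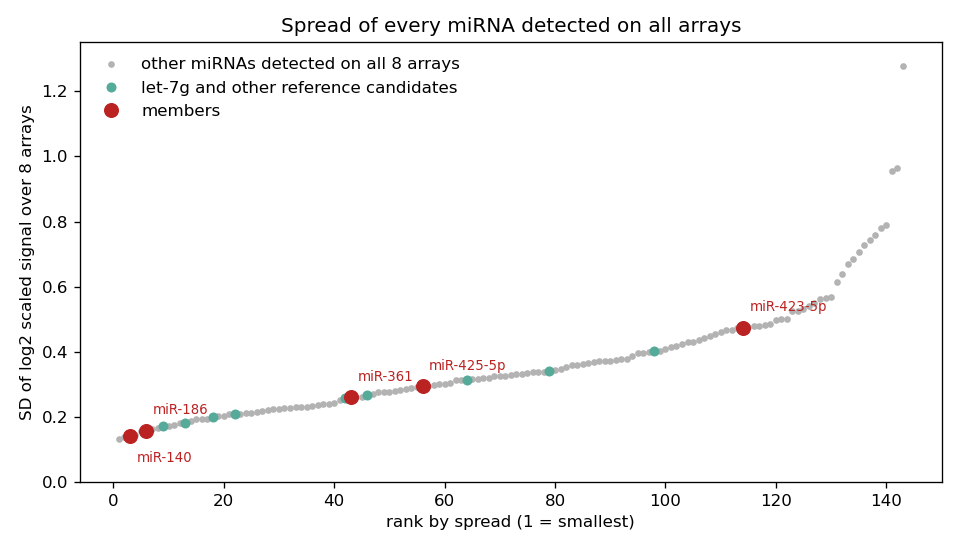
SD over 8 arrays of the log2 scaled signal against its rank for all 143 miRNAs detected on every array, with the 5 detected members and with let-7g and the 8 other reference candidates in colour. miR-140 and miR-186 lie at ranks 3 and 6, and miR-423-5p at rank 114.

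Each detected member was read by a pair of overlapping probes, on 20 spots each, and these gave the same course. The SD over arrays of the log2 ratio of both probes was 0.03 for miR-186, 0.05 for miR-140, 0.06 for miR-423-5p, 0.07 for miR-361 and 0.10 for miR-425-5p. With the scaled signal of the longer or the shorter probe alone, the SD of miR-423-5p was 0.47 or 0.48, and that of miR-140 was 0.13 or 0.16. The probes of a pair share most of their bases, so they are not independent readings, and binding of a related RNA by both was not tested.

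A ratio of 2 miRNAs on the same array is free of the scaling. With 5 detected members there were 10 pairs. The SD of the log2 ratio was smallest for miR-186 over miR-140, 0.23. For this pair the log2 ratio was -1.94, -1.93, -2.27 and -1.82 labelled housed and -2.35, -2.21, -2.23 and -2.44 labelled grazing, so that the labels overlapped only through the array labelled housed 2 mo. The error estimate of this ratio was 0.16.

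Next came miR-425-5p over miR-186 and miR-425-5p over miR-361, with SDs of 0.25 and 0.27. The largest SD was 0.57, for miR-423-5p over miR-186, whose log2 ratio was lowest, -0.69, labelled housed 4 mo and highest, 1.02, labelled grazing 2 mo. As a linear ratio of signals these were 0.618 and 2.03. In 3 of the 10 pairs, each of them with miR-423-5p, the SD was more than 2 times the error estimate of the ratio. The median over the pairs was 0.30.

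**Figure D4:**
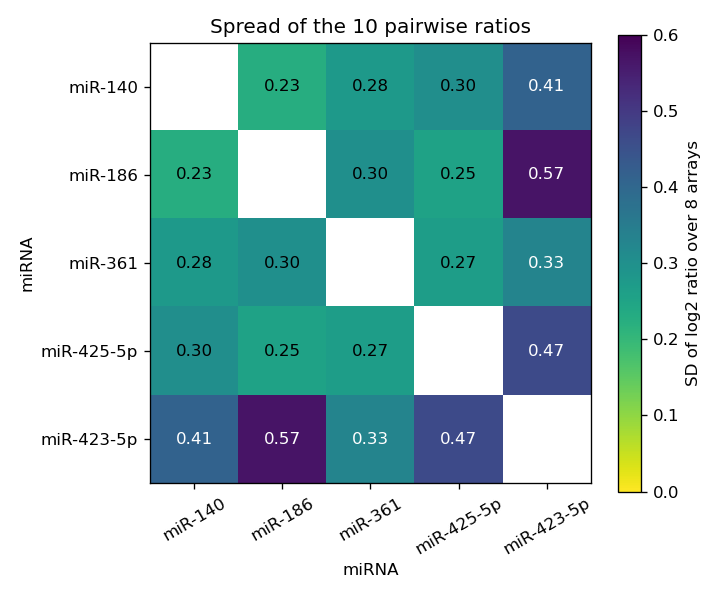
SD over 8 arrays of the log2 ratio of total signals for each of the 10 pairs of detected members. The smallest is 0.23, for miR-186 with miR-140, and the largest 0.57, for miR-186 with miR-423-5p.

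The ranking by ratios differed from that by scaled signal in its first places. The mean SD of a member's ratios to the other 4, the stability value M of the geNorm method, was 0.29 for miR-361, 0.30 for miR-140, 0.32 for miR-425-5p, 0.34 for miR-186 and 0.44 for miR-423-5p. The first 4 lay within 0.05 of each other, and their order changed with single arrays left out. Without the array labelled grazing 4 mo miR-425-5p came first with 0.28, before miR-140 with 0.29 and miR-361 with 0.30. miR-186 thus had place 2 by scaled signal and place 4 by M, and miR-361 place 3 by scaled signal and place 1 by M. With the array labelled grazing 2 mo left out, M was 0.22 for miR-140, 0.23 for miR-361, 0.25 for miR-186, 0.30 for miR-425-5p and 0.35 for miR-423-5p. miR-423-5p was last by both measures, with all arrays and with each array left out in turn.

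Measured against let-7g, miR-186 kept the steadiest ratio, with an SD of 0.16, followed by miR-140 with 0.28, miR-425-5p with 0.33, miR-361 with 0.38 and miR-423-5p with 0.62. The mean of these 5 values was 0.35, higher than the M of each detected member except miR-423-5p. Over 11 ways of scaling or summing the signals, the 90th percentile included, miR-140 had the smallest SD of the 5 in 6 and the second smallest in 5. miR-186 had the smallest in 5 and the second smallest in 4. These 11 do not include scaling each member to the geometric mean of the other 4, where the SD was 0.17 for miR-361, 0.21 for miR-140, 0.24 for miR-425-5p, 0.29 for miR-186 and 0.42 for miR-423-5p. Without scaling, and with scaling to the spike-in, miR-186 had the largest SD, 0.74 and 0.77, and miR-423-5p the second smallest, 0.56 and 0.58.

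The miRNAs most like the members were those with the smallest SD of the log2 ratio to the geometric mean of the 5 detected members, over 8 arrays. Among 138 miRNAs detected on all arrays and not members, these were miR-130a with 0.10, miR-19b with 0.12, miR-339a with 0.14, miR-320a with 0.15 and miR-29b with 0.16. The scaled signal of miR-130a had an SD of 0.14, the 4th smallest of 143, next to that of miR-140. By qRT-PCR the paper reports miR-19b and miR-320a as temporarily lower in grazing than in housed cattle.

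A reference should not differ between the feeding groups, and this was tested with limma on all 143 miRNAs, with month as a block and 3 residual degrees of freedom. The p-values set the label difference against how it varied over the months of the same pooled steers, not against the spread between cattle. Of the 143 miRNAs, 38 differed between the labels at an adjusted p under 0.05, 26.6%, and 17 of them were higher labelled grazing. Without the arrays of 1 mo or of 4 mo this count was 0, with 41 and 40 at an unadjusted p under 0.05, without those of 0 mo it was 15, and without those of 2 mo 33. Of the 5 detected members, 1 passed, miR-423-5p, so the members' count was near the background. Its scaled signal was 0.63 higher labelled grazing (SE 0.15, 95% interval 0.28 to 0.99, limma adjusted p 0.0285). By month the difference was 0.22 (0 mo), 0.67 (1 mo), 0.82 (2 mo) and 0.83 (4 mo). It was thus above 0 at all 4 months and smallest at 0 mo, before the feeding groups were treated differently.

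The other 4 detected members did not pass. The difference was 0.18 for miR-140 (95% interval -0.15 to 0.50), -0.14 for miR-186 (-0.47 to 0.19), 0.13 for miR-361 (-0.31 to 0.57) and 0.02 for miR-425-5p (-0.39 to 0.43). These intervals are wide, so the test does not show that the levels were equal. The limma adjusted p of these 4 lay between 0.373 and 0.960. For let-7g the difference was -0.30 (95% interval -0.59 to -0.01), with a limma adjusted p of 0.120.

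The scaled signals of the labels overlapped for each of the 5 detected members. Of the 143 miRNAs, 31, 21.7%, had labels that did not overlap. With only 5 members, a count of 0 is near that share and does not set them apart. let-7g was among the 31 without overlap, at 2.54, 2.68, 2.69 and 2.77 labelled housed and 2.32, 2.49, 2.29 and 2.39 labelled grazing. In let-7g the arrays of each label thus stood apart, though its limma test did not pass.

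The call of miR-423-5p depended on the scaling and on the arrays. It was made with quantile normalization (difference 0.71, limma adjusted p 0.0358) and with scaling to let-7g (0.93 and 0.0108). The call was lost with scaling to the summed signal (0.43 and 0.164) and to the geometric mean of the other 4 detected members (0.59 and 0.0550). Without any scaling the direction turned, to -0.35, as the median difference of all 143 miRNAs was then -1.07, against -0.08 with scaling. Relative to that median, miR-423-5p was still the higher. With the arrays of 1, 2 or 4 mo left out the adjusted p was 0.112, 0.0682 or 0.150, and without those of 0 mo it was 0.0184.

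**Figure D5:**
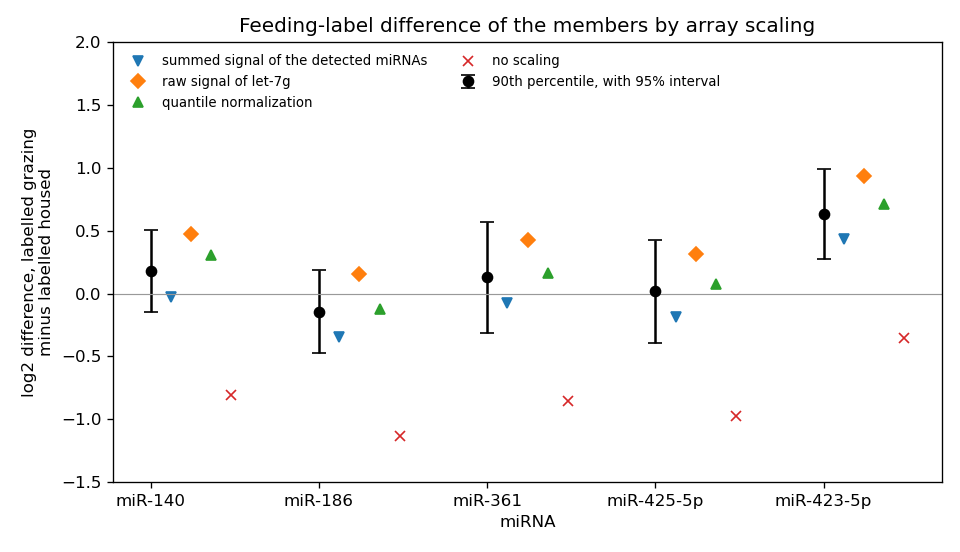
Log2 difference in signal, labelled grazing minus labelled housed, for the 5 detected members, with the 95% interval of the limma fit for the scaling to the 90th percentile and 4 other scalings as symbols. Only the interval of miR-423-5p excludes 0, and without scaling all 5 differences lie below 0, between -1.13 for miR-186 and -0.35 for miR-423-5p.

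On the same arrays, markers of blood cells moved. Red blood cells carry miR-451, miR-144 and miR-486 in large amounts and can release them into plasma. All 3 were detected on all 8 arrays, and their summed signal over the 90th percentile was 26.2 to 47.2 labelled housed and 16.0 to 27.0 labelled grazing. The log2 difference, labelled grazing minus labelled housed, was -0.73 for miR-451 and -1.11 for miR-144 (limma adjusted p 0.0493 and 0.0285). For miR-486 it was -0.23 (limma adjusted p 0.464). The calls of miR-451 and miR-144 were lost without the arrays of 1 mo or of 4 mo. On the array labelled grazing 2 mo, where miR-423-5p and miR-361 were highest, these 3 markers were at their lowest. The log2 ratio of miR-23a to miR-451, a pair used to judge haemolysis, was at its highest there, -0.92. Written this way the ratio falls as miR-451 rises, so this array had the least miR-451 relative to miR-23a. The other 7 arrays had ratios from -2.51 to -1.59. The paper's qRT-PCR gave a higher miR-451 in grazing than in housed cattle at 2 mo. This is the reverse of these labels and the same direction as the arrays give when read by the study's listing. miR-223, which is abundant in platelets and neutrophils, was at its highest there, with a scaled signal of 5.05 against 3.71 to 4.86. The other miRNA of the platelet list, miR-126-3p, was at its lowest there, 4.92 against 5.10 to 5.90. Between the labels the difference was 0.26 for miR-223 (limma adjusted p 0.379) and -0.61 for miR-126-3p (0.0285). The summed signal of miR-223 and miR-126-3p over the 90th percentile was 68.2 to 79.4 labelled housed and 47.5 to 69.6 labelled grazing. The lymphocyte list, miR-150, miR-155 and miR-142-5p, was 10.8 to 18.9 and 12.3 to 18.3, with all 3 detected on all arrays. This sum was mostly miR-142-5p, whose lowest signal was 448, against highest signals of 105 for miR-150 and 59.5 for miR-155. Singly, the label difference was 0.56 for miR-150, -0.12 for miR-155 and 0.18 for miR-142-5p (limma adjusted p 0.115, 0.491 and 0.587). On the array labelled grazing 2 mo miR-155 was at its lowest, -1.32 against -1.23 to -0.87. There miR-150 was -0.47 against -1.46 to -0.05, and miR-142-5p 4.10 against 3.32 to 4.12. Of the 7 muscle miRNAs listed, 0 were detected on all arrays, 1 (miR-133b) was detected on 2, and the other 6, miR-1 among them, on 0. The part of blood cells in the differences of miR-423-5p and miR-361 was not tested.

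Whether the members changed with time was tested as the mean of 1, 2 and 4 mo minus 0 mo, with the label as a term and 5 residual degrees of freedom. Of the 143 miRNAs 10 passed, 6.99%, 9 of them lower at the later months, and 34 had an unadjusted p under 0.05. Of the 5 detected members 0 passed, and 0 had an unadjusted p under 0.05. All 5 differences were above 0, from 0.05 for miR-186 to 0.30 for miR-425-5p (95% interval -0.20 to 0.80, limma adjusted p 0.463).

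Whether the change from 0 mo differed between the labels was tested in the same way, with terms for month and label and 2 residual degrees of freedom. Of the 143 miRNAs 0 passed, 0%, and 8 had an unadjusted p under 0.05. Of the 5 detected members 0 passed by limma and 0 had an unadjusted p under 0.05. The difference in change was largest for miR-361, 0.74 (95% interval -0.13 to 1.60), followed by miR-423-5p with 0.55, miR-425-5p with 0.39, miR-186 with 0.33 and miR-140 with 0.21. The intervals were wide, since the 0 mo level of each label rests on 1 array.

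A reference that differs between labels shifts every other miRNA by that difference, and its own spread over the arrays enters every ratio. When the arrays were scaled to a single member and the other 142 miRNAs tested between the labels, the number that passed went from 0 to 96. It was 96 (67.6%) with miR-423-5p as the reference, and 94 of these were lower labelled grazing. It was 26 (18.3%) with miR-140, 23 of them lower, and 33 (23.2%) with let-7g, of which 31 were higher. With miR-186, miR-361 or miR-425-5p as the reference it was 0 (0%) by limma, while 49, 28 and 36 had an unadjusted p under 0.05. A count of 0 thus does not show that a reference was even between the labels. The SD of the scaled signal was 0.16, 0.26 and 0.29 for these, against 0.14 for miR-140 and 0.47 for miR-423-5p. How far spread and label difference each set the counts was not tested. The number and the direction of the label differences on these arrays thus varied with the reference.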

How the data were processed

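Pools of plasma exosomal RNA were labelled with Cy3 and hybridized by the authors to a custom bovine miRNA array of miRBase release 19, with 29760 spots, 1617 probes and 40 spots for each of 744 miRNAs. The deposited scanner output (Agilent Feature Extraction 10.7.3.1, per the submitters' processing notes) holds intensity values after background subtraction, with no normalization between arrays. A value table deposited by the authors holds a linear ratio, the raw signal over 1 factor per array, not centred. Of its 743 entries, 730 matched the arrays by name. Its column medians, the constants held by undetected miRNAs, were 0.000664, 0.000926, 0.00149 and 0.000915 labelled housed and 0.00187, 0.00257, 0.00135 and 0.00241 labelled grazing. Over which values the authors took their 90 percentile is not known.

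Total signals were divided by the 90th percentile of the array and taken to log2. Of 231 miRNAs with a detection flag on any array, the 143 flagged on all 8 were fitted with limma 3.58.1 in R 4.3.3, with Benjamini-Hochberg adjustment over all miRNAs in the fit and a threshold of 0.05. On simulated data with 20 of 143 miRNAs changed by 2 (log2) over noise with an SD of 0.2, the label, time and interaction fits each recovered 100% with 0 false calls. These changes were larger than any difference of a detected member here. The simulation therefore checks the code and does not show that differences of the members' size would be found. The 21 pairs of 7 members foreseen became 10, and "the other members" became 4, since 2 members were not detected. No array was repeated, so the scanner software's error estimate is the only measure of precision, and the number of arrays limits it. Alternatives were 6 other scalings, 3 other signals, another detection filter, the brightest probe alone and each array left out. Scaling to the spike-in (2 control entries, whose sum followed the scanner's spike-in metric) and to single members was added after results were seen. Named were the members, let-7g, 9 other reference candidates, miR-425-3p, the 5 miRNAs most like the members and blood cell and muscle markers. The members and lists were chosen with earlier results of these data known. The paper's qRT-PCR values were not reanalysed and entered no test here. Python 3.11.15, numpy 2.4.6 and pandas 2.3.3 were used.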

Additional observations from a re-analysis of the deposited data

Results flagged for a closer look

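On the arrays labelled housed, the scaled signal of miR-361 was below its 0 mo value at all 3 later months, by changes of -0.30, -0.23 and -0.32, whereas on those labelled grazing it was above it, by 0.28, 0.84 and 0.24. The difference in mean change was 0.74, and the limma test of it did not pass (adjusted p 0.791). miR-186 also lay below its 0 mo value at all later months labelled housed, by changes of -0.07, -0.26 and -0.02, and above it labelled grazing, by 0.41, 0.13 and 0.09. Its difference in mean change was 0.33 (limma adjusted p 0.962). Such opposite changes at every later month were seen in 14 of the 143 miRNAs, 9.79%. In 9 scalings and signals the pattern was seen in 7 for miR-361 and in 2 for miR-186. All changes of a label are set against the same 0 mo array.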

How the results depend on the processing

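The number of members called for the label was 1, and it was 0 with scaling to the summed signal, 0 with that to the other members and 0 with miRNAs detected on at least 1 array, 2 without scaling (miR-186 and miR-425-5p) and 2 with let-7g (miR-423-5p and miR-140). It was 0 to 1 with each array left out; leaving out either array of a month gave the same fit, since its partner then has no counterpart. Without scaling the label difference was -0.97 for miR-425-5p, -0.35 for miR-423-5p, -0.86 for miR-361 and -0.81 for miR-140, and with the spike-in (chosen after seeing the data) -0.97, -0.35, -0.86 and -0.81. With the summed signal it was -0.19 for miR-425-5p, -0.073 for miR-361 and -0.025 for miR-140. With the other members it was -0.18 for miR-425-5p and -0.042 for miR-361. It was -0.019 for miR-425-5p with the mean spot signal, 0.16 for miR-186 with let-7g and -0.11 for miR-140 with normexp. With arrays left out it lay between -0.10 and 0.14 for miR-425-5p and between -0.041 and 0.32 for miR-361.

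The time difference of miR-425-5p was -0.043 without scaling and -0.18 with the spike-in, and the difference in change of miR-186 was -0.15 with the other members. The counts of members called for time and for the difference in change stayed 0 in every alternative that could be fitted; without a 0 mo array the latter could not be. Of all 143 miRNAs, 38 were called for the label, 17 of them higher. The count was 92 without scaling (1 higher), 83 with the spike-in (1 higher), 6 of 231 with miRNAs detected on at least 1 array (0 higher), 96 with miR-423-5p, 0 with miR-425-5p, 0 with miR-361, 0 with miR-186, and 0 to 33 with arrays left out: 15 without 0 mo, 0 without 1 mo, 33 without 2 mo and 0 without 4 mo. The split was 4 higher of 28 with the summed signal, 31 of 33 with let-7g, 16 of 46 with normexp and 8 of 15 without 0 mo.

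The median SD of the members was 0.26, against 0.72 without scaling and 0.74 with the spike-in. The median SD of the pair ratios was 0.30, against 0.17 with normexp, whose offset of 50 compresses low signals. The label test paired the arrays of both labels by month, as a block. By replicate number, no paired analysis was possible because each label and month had 1 array.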
